A study of Glycine max with 4 samples.

Results

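In soybean seeds, 224 gene models had far lower scaled read levels in the whole dry seed than at any of the stages before and after it. They were chosen by their levels: 10 scaled CPM or more in some library, and the lowest of B1, AA1 and seedling at least 8-fold above dry seed. Of all 66210 gene models in the deposited files, 18905 reached 10 scaled CPM in some library, and the 224 were 1.18% of these. Scaled CPM is the read count per 1000000 reads of a library size adjusted with TMM factors (a trimmed mean of log ratios between libraries). Before a ratio was taken, counts under 3 were set to 3, which is 0.129 scaled CPM in dry seed. The rule further left out gene models with AA1 and seedling both 4-fold above B1, and those with B1 and seedling both 16-fold above AA1. Because the rule used all 4 libraries, the depletion in dry seed is what chose the members, and it is given here as a description with no test. The same holds for every share of members set beside a share of all gene models below, since each is built from levels the rule used.

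Polyadenylated RNA came from 4 stages of the cultivar Williams 82. The B1 sample held green cotyledons of mid-maturation embryos, a pair weighing 150 to 250 mg, and the AA1 sample held yellow cotyledons of late-maturation embryos, a pair weighing 200 to 350 mg. The dry sample held entire seeds of 100 to 250 mg, in which seed coat and embryo axis made a small contribution, and the last sample held cotyledons of seedlings grown on soil for 6 days after imbibition. Each stage was 1 library, so no difference has a replicate check, no p-value is given, and a stage cannot be told apart from its library preparation. Coat and axis were part of the dry sample alone, and tissue therefore changes with stage in every ratio to it. In bulk RNA, fewer cells of a type and less RNA per cell cannot be told apart either. Totals were 16120894 counts in B1, 38011608 in AA1, 21512278 in the dry seed and 28190429 in the seedling. Intervals below are exact 95% intervals that cover counting error only, and PCR copies count as separate reads.

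A maturing legume cotyledon fills with storage protein and oil, then loses water and greenness, and the embryo enters the dry state with a stock of stored messenger RNA. After imbibition, transcription resumes, the stored pool is replaced, and the cotyledon of the young seedling mobilises its reserves and turns green. The identifiers matched 0 of the 59048 genes in the reference table at hand, so the members are described by identifier, level and position, with no gene name, product or sequence. Gene lengths were not used either, so levels are compared between libraries for 1 gene model and not between gene models. A rank of members by scaled CPM is not corrected for length.

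Across the 224 members, the median level was 12.7 scaled CPM in B1, 3.53 in AA1, 0.258 in the dry seed and 17.7 in the seedling. The range was 1.17 to 559.6 scaled CPM at B1, 1.05 to 109.5 at AA1, 0 to 7.0 in the dry seed and 1.06 to 3665 in the seedling. Over the 18905 gene models at 10 scaled CPM or more, the medians in the same stage order were 10.8, 13.0, 14.5 and 14.2. The members' median was thus slightly above the general one in B1 and seedlings and below it in AA1 as well as in dry seed. Another 641 of the 18905 had their lowest other library 4-fold to under 8-fold above dry seed. Their medians were 12.8, 3.22, 0.558 and 17.9 in the same stage order, so a low AA1 median was not particular to the members. As a share of all counts, members held 0.352% at B1 (0.3495% to 0.3553%), 0.136% at AA1 (0.1346% to 0.1369%), 0.0113% in the dry seed (0.01083% to 0.01173%) and 2.38% in the seedling (2.378% to 2.389%). A single member, Glyma08g08770, took 23.2% of the members' seedling counts, and the seedling share was 1.83% without it. These shares are of unscaled counts, without the TMM factors, so they are not on the scale of the levels above.

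**Figure D1:**
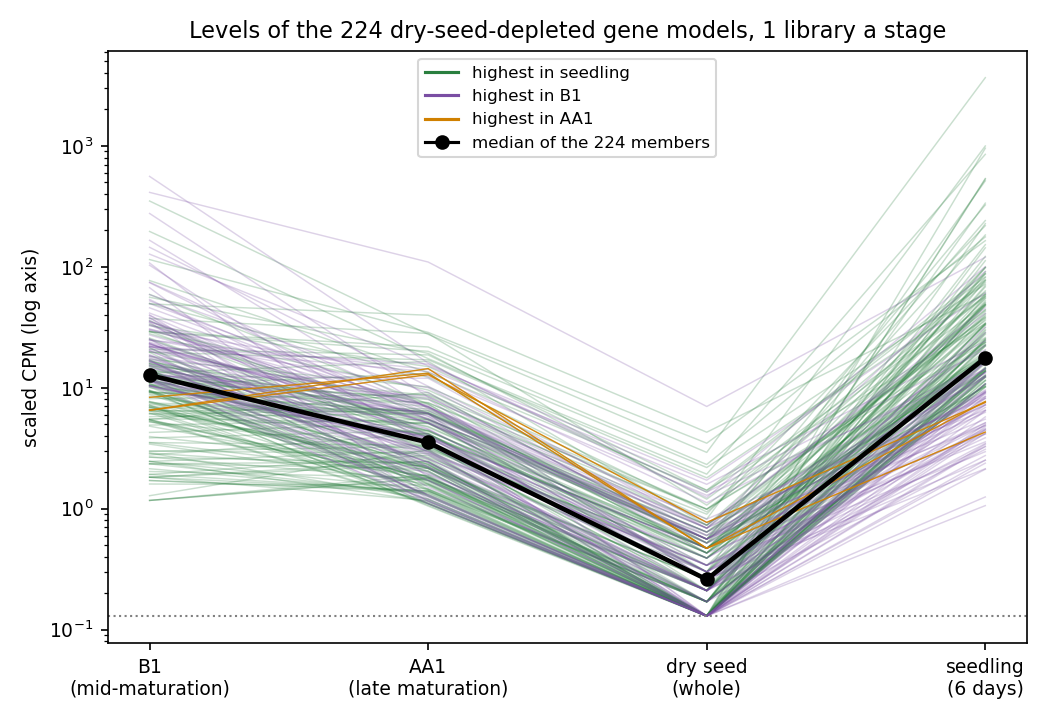
Level of each of the 224 members in the 4 libraries, in scaled CPM on a log axis, coloured by which of B1, AA1 and seedling was highest; the black line joins the medians and the dotted line is the dry-seed floor of 0.129 scaled CPM, at which lower dry-seed values are drawn. The medians run 12.7, 3.53, 0.258 and 17.7 from B1 to seedling, so AA1 lies between B1 and dry seed.

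The dry-seed counts and the ratios given next are values that the rule used. The members' 224 dry-seed values summed to 2425 counts, with a median of 6 and a highest value of 163. Dry-seed counts were 0 for 4 members, 1 or 2 for 31, 3 to 9 for 106 and 10 or more for 83. Of the 18905 gene models at 10 scaled CPM or more in some library, 477 had 0 counts in dry seed. Only 19 members reached 1 scaled CPM in dry seed. The lowest count of any member in B1, AA1 or seedling was 11. The ratio of the lowest other library to dry seed had a median of 10.3, with quartiles of 8.92 and 13.4 and a maximum of 47.5. It was under 10 for 102 members and at least 16 for 34. All 3 intervals of the ratios to dry seed had their lower bound at 8 or more for 28 members and at 4 or more for 176, and the smallest bound of all was 2.41.

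The gene models nearest the threshold show how it divides them. Just inside stood Glyma17g04110 with a ratio of 8.01, Glyma04g05690 with 8.02 and Glyma02g07530 with 8.08. Just outside stood Glyma07g15500 with 7.995, Glyma15g00570 with 7.96 and Glyma06g17990 with 7.95. Glyma17g04110 had 11.8 scaled CPM in B1, 3.09 in AA1, 0.39 in the dry seed and 17.9 in the seedling. Glyma15g00570 had 16.1, 5.47, 0.69 and 30.4 in the same order. With a threshold of 4-fold and no exclusions, 880 of the 18905 gene models would pass (4.65%), and 641 of them lay between 4-fold and 8-fold. Among the 15979 gene models that were high enough in B1, AA1 and seedling to pass (10 scaled CPM in some library and at least 1.03 in each of those 3), the median ratio was 0.445, and 4.52% had a ratio of at least 4. In 11872 of these the lowest of the 3 was at or below dry seed. The members were 1.4% of these 15979 gene models.

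**Figure D2:**
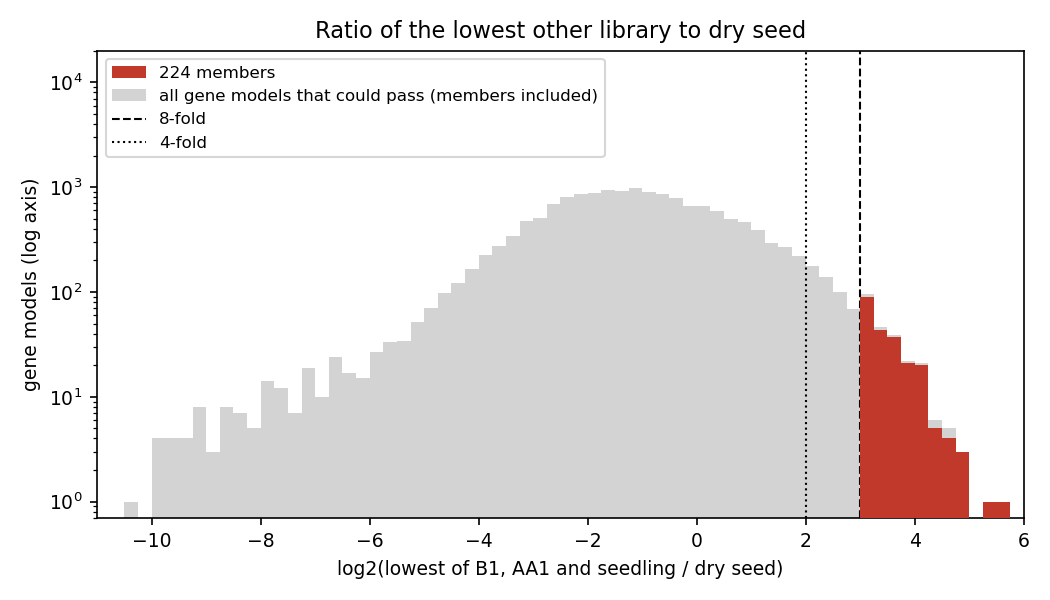
Number of gene models (log axis) by log2 ratio of the lowest of B1, AA1 and seedling to dry seed, for the 224 members in red and for all 15979 gene models that could pass in grey. The members form most of the upper tail beyond the 8-fold line, with no gap at the line. The 15 gene models left out by the exclusions also lie beyond it, in grey.

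The 8 members with the highest ratio of the lowest other library to dry seed are given first. Glyma20g06290 (chromosome 20, by its identifier) had 14.4 scaled CPM in B1, 6.11 in AA1, 0.13 in the dry seed and 8.16 in the seedling, from 135, 245, 3 and 347 counts. Its lowest other library, AA1, was 47.5-fold above dry seed (interval 16.1 to 232). Glyma03g04470 (chromosome 3) had 27.3, 5.84, 0.09 and 5.74 scaled CPM in the same stage order, with 2 counts in dry seed. Its seedling level was 66.8-fold above dry seed (18.3 to 555), or 44.6-fold with the floor of 3 counts. In both, AA1 and seedling stood within 2-fold of each other, and B1 was the highest library.

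Glyma18g50860 had 11.6 scaled CPM in B1, 3.77 in AA1, 0.13 in the dry seed and 9.05 in the seedling. Glyma05g30920 had 10.4, 3.52, 0.04 and 8.49, with a single count in dry seed. Its AA1 level was 82.0-fold above dry seed with a wide interval of 14.5 to 3261, or 27.3-fold with the floor of 3 counts. B1 and seedling were nearly equal in Glyma05g30920, the seedling level being 0.819 of the B1 level (0.653 to 1.04). Both had the same 4-stage shape, with AA1 lower than its neighbours in B1 and seedling.

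In the next 4 members by depth of depletion the seedling library was the highest. Glyma17g10020 had 12.0 scaled CPM in B1, 6.96 in AA1, 0.26 in the dry seed and 54.5 in the seedling. Glyma17g05330 had 5.77, 6.09, 0.21 and 59.7. Glyma07g07100 had 59.2, 7.34, 0.30 and 98.8. Glyma03g31420 varied least of the 4 outside dry seed, with a B1 level of 37.4 scaled CPM, an AA1 level of 28.1, 1.07 in the dry seed and 56.2 in the seedling. With 25 counts in dry seed its AA1 ratio of 26.2 was among the better resolved (17.6 to 40.6).

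**Figure D3:**
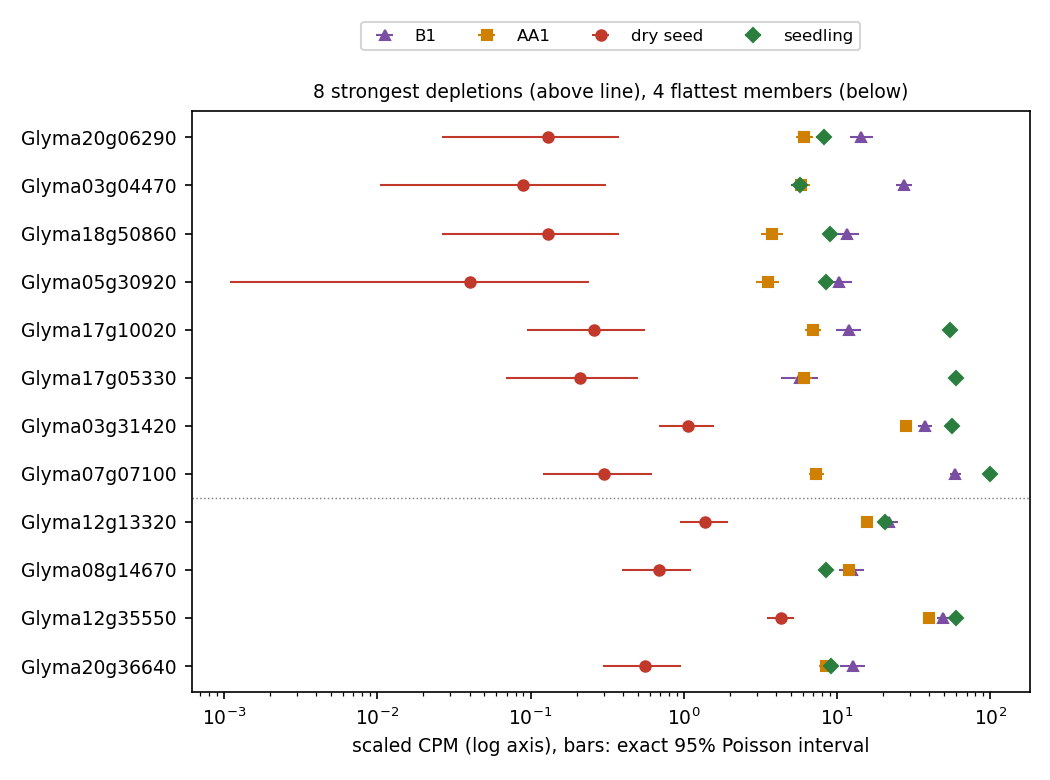
Levels of 12 members in the 4 libraries, in scaled CPM on a log axis with exact 95% Poisson intervals: the 8 with the largest ratio of the lowest other library to dry seed above the dotted line, and the 4 with the least spread among B1, AA1 and seedling below it. In every row the dry-seed interval lies below the other 3 symbols, and it is widest for Glyma05g30920, which had 1 dry-seed count.

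Dry-seed counts of 0 were found for 4 members, which were picked out after their values were seen. Members included, such counts were found for 477 of the 18905 and 6 of the 15979 gene models. Folds are given here against the dry-seed floor of 3 counts. Glyma07g10950 had 1.82 scaled CPM in B1, 2.47 in AA1 and 12.2 in seedlings, and its lowest library, B1, was 14.1-fold above the floor. Glyma03g25280 had 11.4, 1.30 and 10.8 in B1, AA1 and seedlings, and AA1 was 10.1-fold above the floor. Glyma12g09960 had 12.0, 1.10 and 4.77, with AA1 8.53-fold above it. Glyma01g04690 had 9.40, 1.05 and 29.6, with AA1 8.14-fold above it. With counting error in both libraries, the exact intervals of these 4 ratios to dry seed began lower, at 10.3, 7.91, 6.65 and 6.33 in the same order. Their AA1 counts were 42 to 99.

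Depletion only in dry seed described few of the members strictly, because most were lower in late maturation too. AA1 was the lowest of B1, AA1 and seedling for 187 members (83.5%), against 27.3% of the 18905 gene models past the level filter and 23.4% of the 15979 that could pass. B1 was the lowest for 22 and seedling for 15, counts for which no share over all gene models was taken. AA1 was at least 2-fold below both B1 and seedling in 118 members (52.7%), against 14.5% and 9.41% of the same gene models. The rule asks for AA1 well above dry seed and bounds its distance from B1 and seedling, so these shares are partly set by it. The 118 had medians of 14.5 scaled CPM in B1, 2.72 in AA1, 0.215 in the dry seed and 20.8 in the seedling, so the medians were lower at each step from B1 to dry seed. In 101 other members AA1 was within 2-fold of the lower of B1 and seedling, with medians of 10.5, 5.12, 0.343 and 14.2. In 5, AA1 was at least 2-fold above that lower level. For the counts of 101 and 5 no share over all gene models was taken.

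Measured against the lower of B1 and seedling, the 3 deepest dips at AA1 were those of Glyma17g02160, Glyma08g00880 and Glyma05g35470. Against B1 alone other members dipped further, among them Glyma01g39370 at 59.0-fold. Glyma17g02160 had 34.8 scaled CPM in B1, 1.15 in AA1, 0.13 in the dry seed and 16.6 in the seedling. Glyma08g00880 had 19.7, 1.45, 0.17 and 22.2, and Glyma05g35470 had 21.5, 1.6, 0.13 and 52.5. In these 3 the AA1 level was 30.3-fold (22.2 to 42.2), 13.6-fold (10.1 to 18.6) and 13.4-fold (10.1 to 18.1) below B1. Each then stood 8.43-fold to 12.4-fold above dry seed in AA1, on 3 or 4 dry-seed counts.

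At the other end, 12 members (5.36%) had B1, AA1 and seedling all within 2-fold of each other, against 17% of the 18905 and 20.1% of the 15979 gene models. These come closest to a change in the dry seed alone. Glyma12g13320 had 21.8 scaled CPM in B1, 15.7 in AA1, 1.37 in the dry seed and 20.6 in the seedling. Its seedling level was 0.946 of its B1 level, with an interval that holds 1 (0.811 to 1.11), while AA1 was 11.4-fold above dry seed (8.01 to 16.9). Glyma08g14670 had 12.5, 12.0, 0.69 and 8.47 scaled CPM, and Glyma20g36640 had 12.7, 8.49, 0.56 and 9.10. Glyma12g35550 had 49.3, 39.8, 4.29 and 59.3, from 100 dry-seed counts, and its AA1 level was 9.27-fold above dry seed (7.57 to 11.5).

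AA1 itself was the highest library for 3 members, which were picked out after their values were seen. No share over all gene models was taken for this count. Glyma03g06420 had 6.52 scaled CPM in B1, 14.4 in AA1, 0.47 in the dry seed and 4.30 in the seedling. Glyma04g05290 had 8.33, 13.2, 0.47 and 7.71, and Glyma08g00280 had 6.52, 12.8, 0.77 and 7.57. All 3 had under 15 scaled CPM at their highest. No member had AA1 at least 4-fold above B1 (0%), against 14% of the 18905 and 12.1% of the 15979 gene models. The count was also 0 among the 239 gene models that met the rule before its exclusions.

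**Figure D4:**
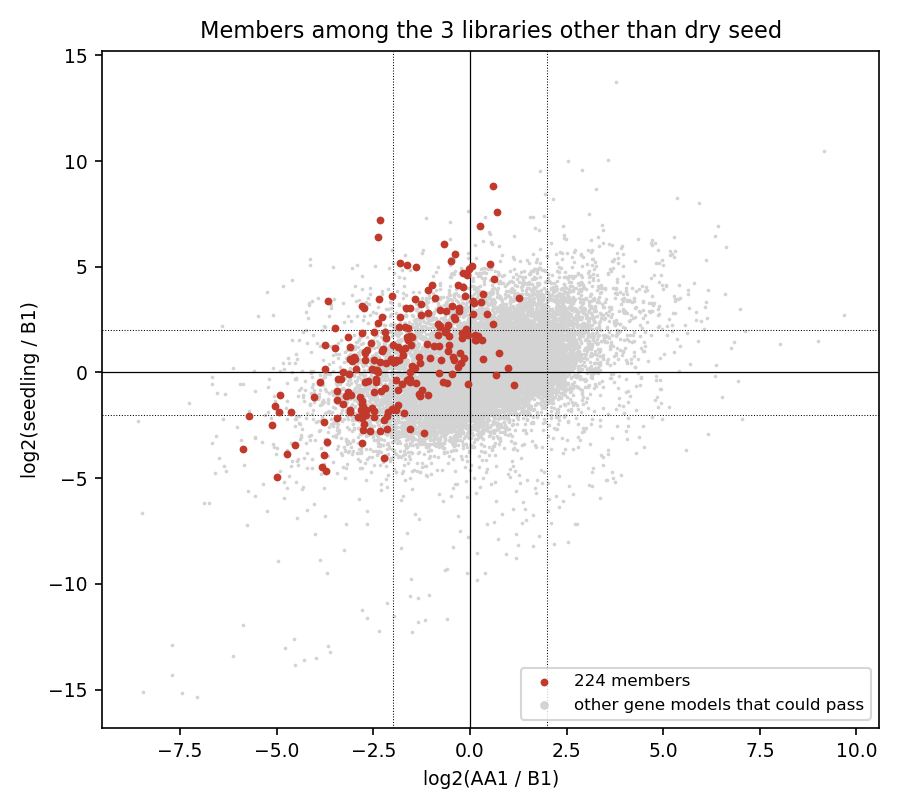
Log2 ratio of seedling to B1 against log2 ratio of AA1 to B1 for the 224 members in red and for the other gene models that could pass in grey, with dotted lines at 4-fold. The members lie mostly left of 0 on the AA1 axis, none lies right of the 4-fold line, and they spread over both sides of 0 on the seedling axis.

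From mid to late maturation, the level was lower in AA1 for most members. The median of AA1 over B1 was -1.84 on the log2 scale, where the 18905 gene models had a median of 0.38. AA1 was at least 4-fold below B1 in 103 members (46%), against 13.9% of the 18905 and 7.74% of the 15979 gene models. With total counts in place of TMM this count was 44. That scaling raises AA1 over B1 by 0.86 on the log2 scale in the median gene model. The shares over all gene models were taken with TMM only, so the 44 has none beside it. For 176 members (78.6%) the interval of AA1 over B1 lay below 1, against 33% of the 18905 and 30.7% of the 15979 gene models. For 7 members (3.12%) it lay above 1, against 51% and 54.5%, and for 41 it held 1.

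Among the members, Glyma17g35530 had the highest scaled CPM in B1. It had 559.6 scaled CPM in B1, 16 in AA1, 1.24 in the dry seed and 100.2 in the seedling. Its AA1 level was 35.0-fold below B1 (32.2 to 38.0), and its dry-seed level was a further 12.9-fold below AA1 (8.86 to 19.3). Glyma08g25950 followed the same course with a B1 level of 276 scaled CPM, an AA1 level of 8.39, 0.69 in the dry seed and 91.6 in the seedling. Glyma10g06600 had 413 in B1, 110 in AA1, 7.0 in the dry seed and 120 in the seedling, the highest scaled CPM of all members in both AA1 and dry seed. Its AA1 level was 15.7-fold above dry seed (13.4 to 18.4), a narrow interval from 163 dry-seed counts. Glyma05g29000 was among the 3 highest in both libraries, with 115, 28.7, 3.48 and 164 scaled CPM.

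In the seedling, most members stood above late maturation and on both sides of mid-maturation. Seedling was at least 4-fold above AA1 in 133 members (59.4%), against 19.5% of the 18905 and 11.9% of the 15979 gene models. The median of seedling over AA1 was 2.52 on the log2 scale, against -0.09 for the 18905. Against B1 the members divided. Seedling was within 2-fold of B1 in 68 (30.4%), against 40.6% and 46.6% of the same gene models. It was at least 4-fold above B1 in 62 (27.7%), against 21.3% and 14.4%, and at least 4-fold below B1 in 27 (12.1%), against 11.8% and 9.77%. The share below B1 was close to the background. With total counts in place of TMM, 113 members were 4-fold above B1 and 8 were 4-fold below it, and with the upper quartile 43 were below it. Shares over all gene models were not taken with these scalings, so those above do not apply to these counts.

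Seedling was the highest of the 3 libraries for 137 members (61.2%), against 38% of the 18905 and 33.9% of the 15979 gene models. Those 137 had medians of 9.19 scaled CPM in B1, 3.07 in AA1, 0.215 in the dry seed and 33.3 in the seedling. B1 was the highest for 84, with medians of 22.1, 3.83, 0.300 and 8.22. For that count no share over all gene models was taken. The level of 10 scaled CPM, which the rule asks of 1 library, was reached in seedling only by 77 members (34.4%), against 18.8% of the 18905 gene models. It was reached in B1 only by 51 (22.8%), against 8.27%, and in B1 and seedling but not AA1 by 67 (29.9%), against 6.75%. It was reached in AA1 only by 3 (1.34%), against 9.38%, in AA1 and 1 other library, B1, by 2 (0.893%), against 20.7% in AA1 and either other library, and in all 3 by 24 (10.7%), against 29.5%.

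The 4 members with the highest scaled CPM in the seedling differed in how far they stood above B1. Glyma08g08770 had 350 scaled CPM in B1, 27.7 in AA1, 2.92 in the dry seed and 3665 in the seedling. Its seedling level was 1256-fold above dry seed (990 to 1617) and 10.5-fold above B1 (10.1 to 10.8). Glyma16g25860 had 6.41, 1.27, 0.13 and 957 scaled CPM, and its seedling level was 149-fold above B1 (116 to 196). Glyma16g04940 had 29.5, 9.58, 0.82 and 998.6, and Glyma03g42310 had 196, 17.4, 1.93 and 852, a seedling level 4.34-fold above B1.

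By ratio to B1, Glyma20g38720 stood highest. It had 1.17 scaled CPM in B1, 1.77 in AA1, 0.13 in the dry seed and 537 in the seedling, a 457-fold excess of seedling over B1 (256 to 916) that rests on 11 counts in B1. Glyma02g15370 had 1.17, 1.90, 0.13 and 228, a 194-fold excess (108 to 388), also from 11 counts in B1. For these gene models the seed libraries were all low, and dry seed was the lowest among low values. In all, 61 members (27.2%) had seedling at least 4-fold above every other library, against 11.6% of the 18905 and 5.62% of the 15979 gene models. They made up 1.46% of the 4181 gene models with that profile at 1 scaled CPM or more in some library. Because the rule puts seedling at least 8-fold above dry seed in every member, the 27.2% is partly set by it.

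Members with the opposite balance were far lower at all later stages than in B1. Glyma18g46240 had 38.2 scaled CPM in B1, 1.20 in AA1, 0.09 in the dry seed and 1.25 in the seedling, so its seedling level was 30.7-fold below B1 (22.9 to 41.8). Glyma08g42490 had 53.7, 4.07, 0.26 and 2.14, and Glyma06g44050 had 145, 10.3, 0.77 and 6.54. Their seedling levels were 25.1-fold (20 to 31.7) and 22.2-fold (19.5 to 25.3) below B1, yet still 8.31-fold and 8.46-fold above dry seed. A level at least 4-fold above every other library was found in B1 for 25 members (11.2%), against 3.97% of the 18905 and 2.17% of the 15979 gene models. Here too the rule fixes the comparison with dry seed for every member, so the 11.2% is partly set by it. These 25 were 1.54% of the 1623 gene models with that profile at the lower filter of 1 scaled CPM or more in some library.

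The members met the neighbouring profile of transcripts shared by both green cotyledons in part. In 61 members (27.2%) both B1 and seedling were at least 4-fold above AA1 and dry seed, against 6.36% of the 18905 and 3.09% of the 15979 gene models. Every member meets the dry-seed part of this profile through the rule, so the 27.2% is partly set by it. The 61 were 2.53% of the 2408 gene models with that profile at 1 scaled CPM or more in some library. A stronger form of it was left out by the rule. These were 15 gene models with B1 and seedling both at least 16-fold above AA1, while 0 were left out for AA1 and seedling above B1. The 15 had medians of 77.0 scaled CPM in B1, 2.42 in AA1, 0.172 in the dry seed and 157 in the seedling. The AA1 and dry-seed medians were thus lower than those of the members (3.53 and 0.258), and the B1 and seedling medians were higher. The exclusion asks for B1 and seedling far above AA1, so this contrast partly follows from it. The highest in seedlings was Glyma14g01130, picked for its value, with a B1 level of 279 scaled CPM, an AA1 level of 15.6, 1.89 in the dry seed and 2693 in the seedling.

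By the chromosome numbers in their identifiers, the members were spread over all 20 chromosomes. The number ranged from 5 on chromosome 14 to 20 on chromosome 8. As a share of the gene models that could pass, it ranged from 0.759% on chromosome 4 to 2.25% on chromosome 3, around 1.4% in all. These chromosome counts are small, and the differences between them were not tested.

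**Figure D5:**
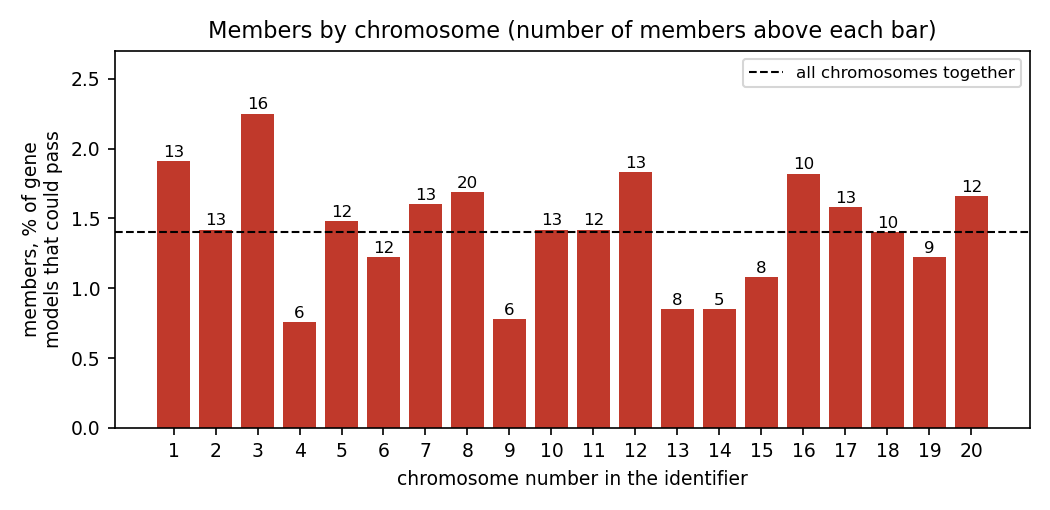
Members as a percentage of the gene models that could pass, by chromosome number in the identifier, with the number of members above each bar and the share over all chromosomes as a dashed line. Chromosome 3 has the highest bar (16 members, 2.25%) and chromosome 4 the lowest (6 members, 0.759%).

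No 2 members were next to each other in identifier order, and 5 pairs had at most 4 gene models between them. These counts were not set against those of randomly placed gene models, so they do not tell whether members cluster. On chromosome 14, Glyma14g25920 had 35.1 scaled CPM in B1, 7.01 in AA1, 0.47 in the dry seed and 5.13 in the seedling, and Glyma14g25940 had 22.9, 5.12, 0.43 and 3.57. Their profiles ran in parallel, and the gene model between them had 0 counts in every library. On chromosome 6, Glyma06g40710 had 7.58, 1.65, 0.13 and 28.2, and Glyma06g40740 had 25.2, 3.64, 0.17 and 91.2, again in parallel. Both gene models between this pair had 0 counts in every library. How the authors assigned reads shared by near-identical copies is not given in the sources used here, so parallel profiles of close gene models may count some of the same reads, which was not tested.

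The other 3 pairs were less alike. On chromosome 19, Glyma19g31400 had 56.1 scaled CPM in B1, 19.2 in AA1, 1.20 in the dry seed and 57.2 in the seedling, and Glyma19g31420 had 10.2, 1.30, 0.13 and 16. Glyma19g31410, which lies between them, went the other way in dry seed, with 3.20, 7.99, 15.2 and 27.0. On chromosome 11, Glyma11g03500 had 23.4, 3.39, 0.26 and 9.27, and Glyma11g03530 had 25.4, 1.10, 0.13 and 2.38. Of the 2 gene models between them, Glyma11g03520 reached its highest level in dry seed, with 2.99, 14.2, 28.8 and 2.66, while Glyma11g03510 was lowest in dry seed, with 2.78, 5.34, 1.55 and 6.73. On chromosome 1, Glyma01g39370 had 1.82 scaled CPM in AA1, against 108 in B1, while Glyma01g39420 had 3.09 in AA1, against 10.5 in B1.

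Direct neighbours of members in identifier order were also examined. There were 446 such neighbours that were not members, of which 110 were high enough to pass. The lowest other library was at least 4-fold above dry seed in 4 of these 110 (3.64%), against 3.16% of the 15755 gene models that could pass and were not members. Their median ratio was 0.457, against 0.435 for the 15755.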

How the data were processed

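RNA of 4 samples, 1 per stage, was analysed. The deposited values are counts of mapped reads per gene model, per the file headers, and were not normalized. Per the submitters' processing notes, Bowtie was used. Its version, the genome build, the annotation, the counting program and the treatment of multiply mapped reads were not given in the sources used here. Per the labels' protocols, poly-A RNA was selected in repeated rounds, fragmented, copied with random primers and read from 1 end, with no step that marks strand. Reads of overlapping antisense gene models therefore cannot be separated.

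With edgeR 4.0.16 (R 4.3.3), the TMM factors of B1, AA1, dry seed and seedling came to 0.581, 1.05, 1.08 and 1.51. The floor of 3 counts is 0.32, 0.075, 0.129 and 0.071 scaled CPM in that order. Ratios of named gene models are of unfloored levels, with exact 95% binomial intervals, except where dry seed had 0 counts or the floor is named. Shares have exact Clopper-Pearson intervals. Low dry-seed counts widen the intervals of the ratios.

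The members, lists and naming rules were chosen with earlier results of these data known. Gene models were named for the highest ratio to dry seed (8), the highest level in B1, AA1 or seedling (4 each) or dry seed (3), the least spread (4), the highest and lowest seedling over B1 (3 each), the deepest AA1 dip (3), the threshold and closeness in identifier order. A gene model could meet several of these. Keyword lists of products, seed coat markers among them, were not run because 0 identifiers matched Glycine_max_v4.0. Alternatives were 4 other scalings (one by DESeq2 1.42.0), other floors, filters and folds, a pseudocount of 1 scaled CPM, and thinning to 16120894 counts. All 4 deposited count columns were used.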

Additional observations from a re-analysis of the deposited data

How the results depend on the processing

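No paired analysis was possible because each stage has 1 library, and for the same reason no replicate could be left out. The number of gene models that met the rule was 224. It was 197 with total counts, 182 with DESeq2 size factors, 227 with the upper quartile and 332 with totals without the 100 most abundant gene models, of which 164, 176, 205 and 224 were among the 224. Thinning to the B1 depth gave 192, of which 159 were among them. It was 828 at 4-fold, 34 at 16-fold, 345 with a minimum of 1 scaled CPM or none, 108 with a floor of 10 counts, 28 when 8-fold was required of the interval bounds and 5 with a pseudocount of 1 scaled CPM. By construction the pseudocount pulls ratios of low levels toward 1. A floor of 1 count gave 313, a minimum of 5 scaled CPM gave 294 and no exclusions gave 239. The median ratio of the lowest other library to dry seed, 10.3, was 9.49 with total counts, 9.61 with DESeq2 size factors, 12.1 without the 100 most abundant, 9.77 after thinning and 3.33 with the pseudocount. With total counts, members with AA1 4-fold below B1 numbered 44, those with seedling 4-fold above B1 numbered 113 and those with seedling 4-fold below B1 numbered 8, and with the upper quartile the last was 43. Total counts raise AA1 over B1 by 0.86 and seedling over B1 by 1.37 on the log2 scale in the median gene model. The last of these counts was added after the data were seen, as were those of members highest in seedling (125 to 175 over the alternatives), with AA1 lowest (150 to 196) and within 2-fold outside dry seed (9 to 14). Members with AA1 2-fold below both B1 and seedling numbered 89 to 124, and those with seedling 4-fold above AA1 numbered 117 to 151. Low dry-seed counts, and for some members low B1 counts, limit the precision of the ratios.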
